A study of Xenopus laevis with 27 samples.

Results

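The comparison described here set Xenopus laevis embryos injected with DBM, a form of Suppressor of Hairless that cannot bind DNA and suppresses Notch signaling, against embryos injected with GFP, the tracer and injection control, at tailbud stage 28. It rested on 6 of the 27 arrays of the series, 3 DBM and 3 GFP, and on all 15505 probe sets that carry 1 gene symbol, of 32635 on the array. These probe sets stood for 11303 symbols, and all of them were tested with no filter on level. Every embryo of the series had received 1.5 ng of capped RNA in 1 blastomere at the 2-cell stage, so each pool also held the uninjected side of its embryos. The NICD embryos, injected with the Notch Intracellular Domain that activates the pathway, served here as a further construct at stage 28, and DBM and GFP embryos of late neurula stage 18 and of swimming tadpole stage 38 as the earlier and later stages. Each array held RNA from a pool of 10 whole embryos, with 3 arrays per construct and stage. Neither the study's methods nor the sample titles say whether the 3 arrays of a group came from separate pools. In whole embryos, fewer cells of a type and less RNA per cell cannot be told apart.

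Notch signaling passes between touching cells. A ligand of the Delta or Jagged family on one cell leads to the release of the intracellular domain of the Notch receptor in its neighbour, where this domain joins the DNA-binding protein Suppressor of Hairless, encoded by rbpj, and turns on repressors of the hes and hey families. In the neural plate these repressors hold down the proneural factors, so that cells with active Notch remain progenitors while their neighbours leave the cycle and become neurons. In the larval epidermis of Xenopus the same pathway limits how many cells become multiciliated cells and ionocytes.

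All values are RMA levels on the log2 scale, and a difference of 1 is a 2-fold change. Differences are DBM minus GFP, from a limma fit over all 27 arrays with the replicate number of each stage as a block, and a probe set was called at a Benjamini-Hochberg adjusted p below 0.05 over all 32635 probe sets. Adjusted p-values below are from this fit, and errors of a difference are its SE. Pairwise correlations of the 6 arrays over all probe sets were 0.989 to 0.996, which does not show that they were alike in quality. GFP replicate 1 had the lowest mean level of the hybridisation controls, 9.18 against 9.25 to 9.47 in the other arrays. No probe set could be tied to the injected RNAs. For rbpj itself, 3 probe sets of rbpj.S differed by -0.24, 0.23 and 0.03, none of them called, and whether any of these detects the injected DBM RNA is not given in the sources used here.

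DBM embryos had higher levels of some axon, synaptic and neuropeptide genes and lower levels of some hes5 repressors than GFP embryos at stage 28. The proneural and ion channel lists showed no such shift. No hes5 call was kept through every omission of a single array, and none was made with no block. The gene lists used below were chosen with earlier results of these data known, so their counts are descriptions. Of the 15505 probe sets with a symbol, 243 rose and 82 fell, against background shares over the whole array of 1.57% called higher, 0.374% called lower and 1.94% called in all. The 243 probe sets stood for 227 symbols with a median difference of 0.45 and a range of 0.27 to 1.15. Those that fell stood for 80 symbols with a median of -0.43 and reached -1.39. The changes were small, and 5 of the 325 were over 2-fold. Every called probe set had the same sign in all 3 pairs of arrays with 1 replicate number. The groups did not overlap in 206 of the 243 and in 66 of the 82, where 13.4% of all probe sets on the array had groups that did not overlap. Sign and overlap were read on the arrays and pairs that made the calls, so both are descriptions and add no support. At an unadjusted p below 0.05, 2639 probe sets with a symbol passed.

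The number of calls depended strongly on the block and on the arrays that estimate the spread. The same fit with no block called 35 probe sets of the whole array in place of 634. The 6 arrays alone called 100 with the block and 0 in limma without it, where 2359 had an unadjusted p below 0.05. The full fit called 292, 192 and 160 without DBM replicate 1, 2 or 3 and 188, 213 and 523 without GFP replicate 1, 2 or 3. Leaving out 1 array at a time, 38 of the 325 called probe sets kept their call without each of the 6 arrays, 34 of them higher and 4 lower. Of these 38, 27 were also called on the 6 arrays alone with the block, and 17 in the full fit with no block. The balance of directions moved as well. Without GFP replicate 1, 118 probe sets were higher and 70 lower, against 512 and 122 with all arrays. This array had the lowest median level of the 6 (6.91, against 6.95 to 6.97 in the other 5). With all arrays set to a common median, 371 were higher and 149 lower, and repeated quantile normalization gave 403 and 152. The part of the level of GFP replicate 1 alone was not tested.

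**Figure D1:**
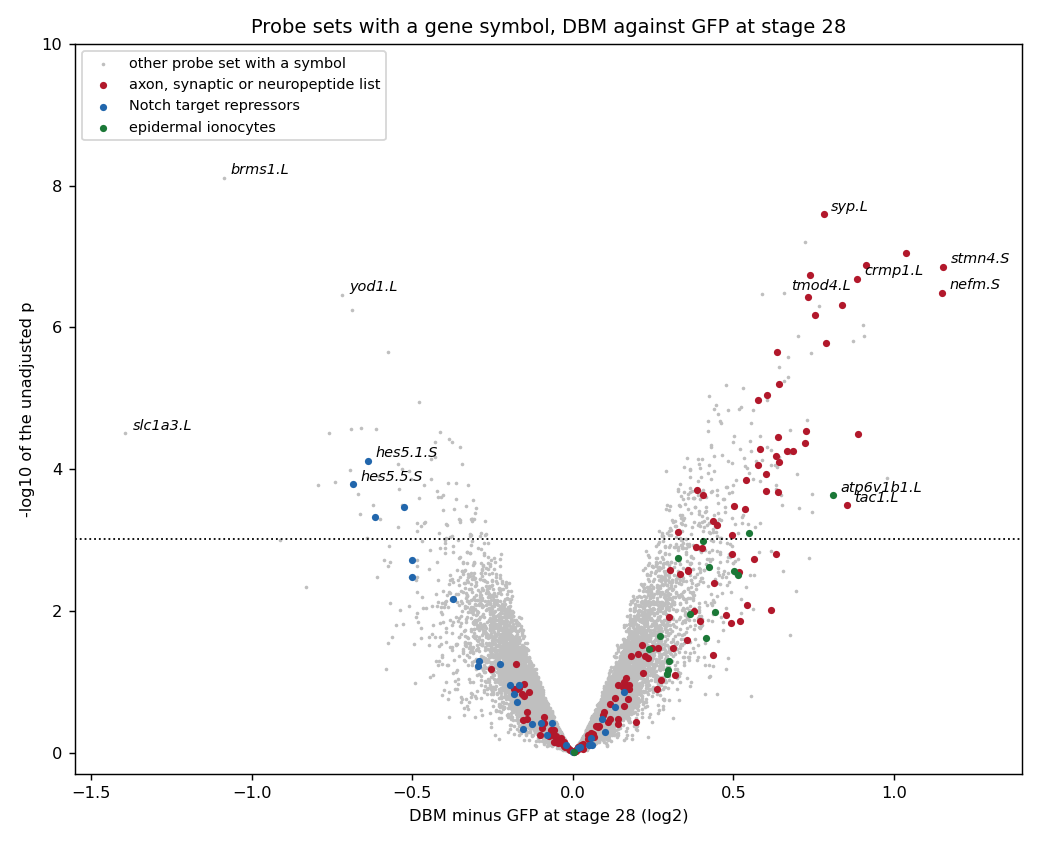
Difference between DBM and GFP embryos at stage 28 (x axis, log2) against the unadjusted p of the limma fit (y axis, -log10) for each probe set with a gene symbol, with members of the axon, synaptic and neuropeptide lists in red, Notch target repressors in blue and epidermal ionocyte genes in green; probe sets above the dotted line were called. Red points lie at the upper right, led by syp.L and stmn4.S, while slc1a3.L, brms1.L and yod1.L stand alone at the left.

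Genes of the axon and the neuronal cytoskeleton held the most calls of any list, and the lists differed in size. Of their 74 probe sets, 20 rose and 0 fell, where 1.57% of the array was called higher and 0.374% lower. The 20 stood for 18 symbols. The median difference was 0.22 against -0.01 over all probe sets, and 58 lay above 0. The widest differences were those of the stathmin stmn4 and of the neurofilament subunit nefm. Stmn4, which regulates microtubules in neurons, had levels of 7.39, 7.52 and 7.04 in the DBM arrays, against 6.24, 6.30 and 5.94 in the GFP arrays for its S homeolog. Every DBM array stood above every GFP array, and the difference was 1.15 ± 0.14 (SE, adjusted p = 0.000413). Its L homeolog differed by 1.04 ± 0.12 (SE, adjusted p = 0.000413). For the medium neurofilament chain, nefm.S gave 8.71, 8.44 and 8.65 in the DBM arrays, against 7.60, 7.35 and 7.40 in the GFP arrays, again with no overlap. The 2 homeologs differed by 1.15 ± 0.15 (SE, adjusted p = 0.000623) for nefm.S and 0.91 ± 0.11 (SE, adjusted p = 0.000413) for nefm.L. These 4 probe sets kept their calls without each of the 6 arrays, with adjusted p-values of at most 0.0125.

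The collapsin response mediator crmp1, which acts in axon guidance, gave 7.67, 7.49 and 7.99 in the DBM arrays, against 6.85, 6.76 and 6.89 in the GFP arrays, a difference of 0.88 ± 0.11 (SE, adjusted p = 0.000478). Gamma-synuclein, sncg.S, was a brighter gene with little spread. It gave 10.82, 10.67 and 10.67 in the DBM arrays, against 9.95, 10.03 and 9.97 in the GFP arrays and differed by 0.74 ± 0.09 (SE, adjusted p = 0.000459). The arrays of each group lay close together, and the gap between the groups was several times wider. A neuronal intermediate filament of Xenopus, nif, rose on both homeologs, by 0.87 ± 0.12 (SE, adjusted p = 0.00159) for nif.L and 0.67 ± 0.10 (SE, adjusted p = 0.00198) for nif.S. The stathmin stmn3.S differed by 0.79 ± 0.11 (SE, adjusted p = 0.00166), and gap43.L, a protein of the growth cone, by 0.60 ± 0.10 (SE, adjusted p = 0.00429). All of these were among the 38 that no single array decided. With no block, however, nif.L, nif.S and gap43.L were not called (adjusted p = 0.0606, 0.369 and 0.0501). Beta-synuclein, sncb.S, differed by 0.89 ± 0.16 (SE, adjusted p = 0.00847) but lost its call without DBM replicate 3 or GFP replicate 1 (highest adjusted p = 0.0754), and the adhesion molecule l1cam.S, at 0.64 ± 0.13 (SE, adjusted p = 0.0137), lost it without DBM replicates 2 and 3 or GFP replicates 1 and 2 (highest adjusted p = 0.115). Over the list, 12 of the 74 probe sets were called higher without DBM replicate 1, 10 without DBM replicate 3, 10 without GFP replicate 1 and 9 with no block.

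**Figure D2:**
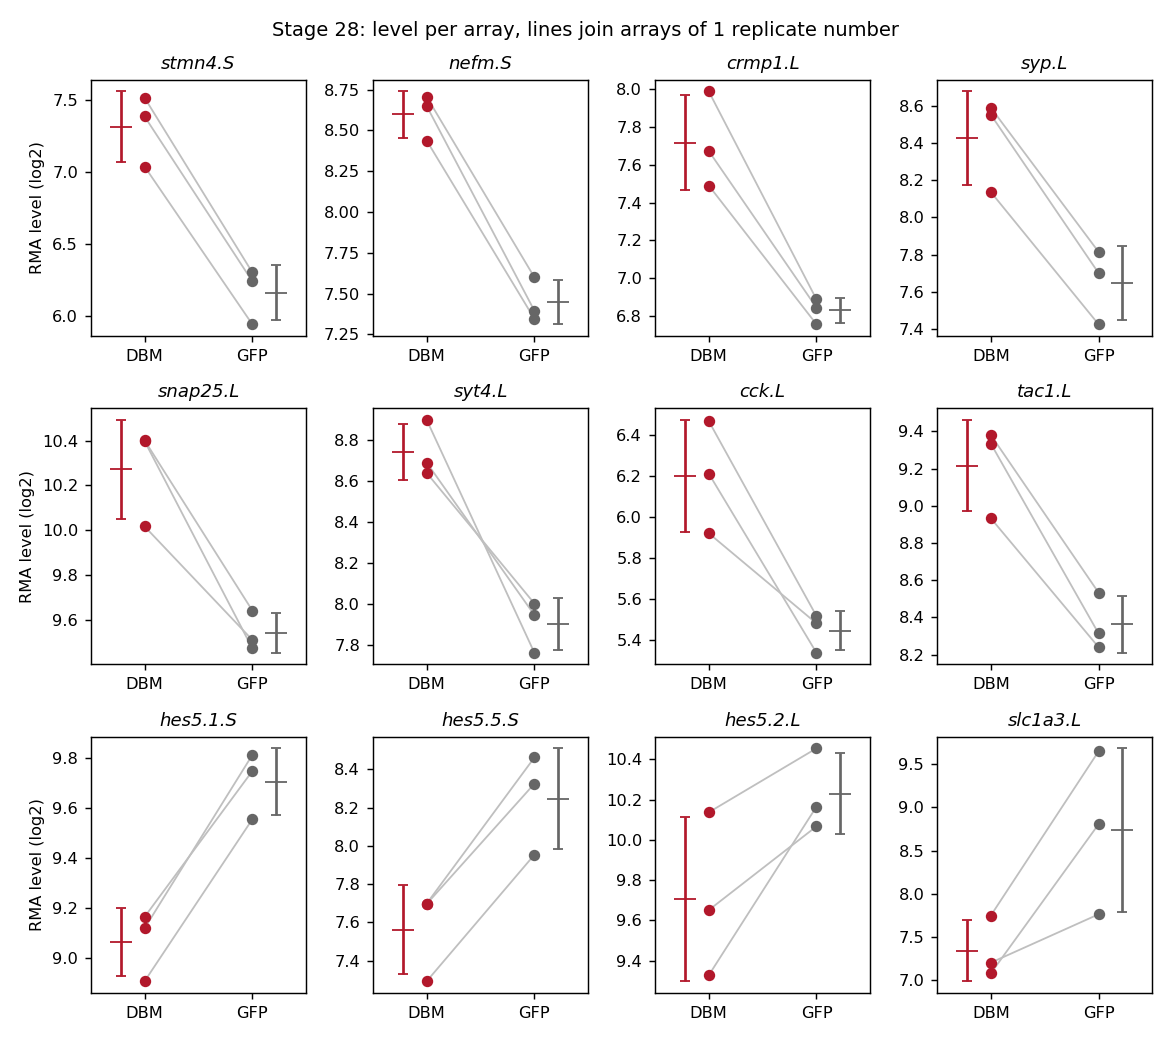
RMA level (y axis, log2) of 12 genes in each of the 6 arrays at stage 28, DBM in red at the left and GFP in grey at the right of each panel, with lines joining arrays of 1 replicate number and bars giving the mean and SD of each group. In the 8 neuronal panels the 3 DBM arrays lie above the 3 GFP arrays, and in hes5.1.S and hes5.5.S they lie below.

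Genes of synaptic vesicle release and transmitter synthesis moved in the same direction. Of 48 probe sets, 14 rose and 0 fell, where 1.57% of the array was called higher. The median difference was 0.19, and 37 lay above 0. Synaptophysin, an abundant membrane protein of synaptic vesicles, had the lowest p of all genes that rose. Its L homeolog gave 8.55, 8.14 and 8.59 in the DBM arrays, against 7.70, 7.42 and 7.81 in the GFP arrays, a difference of 0.78 ± 0.08 (SE, adjusted p = 0.000275). In each pair of one replicate number the DBM array was above the GFP array, including replicate 2, where both were lowest. The S homeolog differed by 0.64 ± 0.10 (SE, adjusted p = 0.00348). The SNARE protein snap25.L gave 10.40, 10.02 and 10.40 in the DBM arrays, against 9.47, 9.51 and 9.64 in the GFP arrays, with a difference of 0.73 ± 0.09 (SE, adjusted p = 0.000634). DBM replicate 2 was again the lowest DBM array and still stood above all GFP arrays. Synaptotagmin 4, a vesicle protein, gave 8.90, 8.69 and 8.64 in the DBM arrays, against 7.76, 7.95 and 8.0 in the GFP arrays, a difference of 0.84 ± 0.11 (SE, adjusted p = 0.000785). These 4 probe sets kept their calls without each array, but syp.S was not called with no block (adjusted p = 0.132). The SNARE protein vamp2.L (0.73 ± 0.13 (SE, adjusted p = 0.00794)) lost its call without DBM replicate 3 or GFP replicate 1 (highest adjusted p = 0.0733). Complexin 1, cplx1.L (0.63 ± 0.12 (SE, adjusted p = 0.0129)), lost it without DBM replicate 3 or GFP replicates 1 and 3 (highest adjusted p = 0.121). Transporters that fill vesicles with an inhibitory or an excitatory transmitter were both called, slc32a1.S, for GABA and glycine, with a difference of 0.64 ± 0.12 (SE, adjusted p = 0.0088) and slc17a7.S, for glutamate, with one of 0.50 ± 0.12 (SE, adjusted p = 0.0471). The first lost its call without DBM replicates 2 and 3 or GFP replicate 1 (highest adjusted p = 0.0937), and the second without DBM replicates 1, 2 and 3 or GFP replicates 1, 2 and 3 (highest adjusted p = 0.236). The list had 9 calls without DBM replicate 1, 6 without DBM replicate 2, 4 without DBM replicate 3, while leaving out GFP replicate 1, 2 or 3 gave 4, 8 and 7 calls and no block gave 3.

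Among 21 neuropeptide probe sets, 4 rose and 0 fell, where 1.57% of the array was called higher. The median difference of the list was only 0.02. The precursor of cholecystokinin, cck.L, gave 6.47, 6.21 and 5.92 in the DBM arrays, against 5.52, 5.34 and 5.48 in the GFP arrays, a difference of 0.75 ± 0.10 (SE, adjusted p = 0.00088) that no single array decided. Tac1, the precursor of substance P, was called on both homeologs, and tac1.L gave 9.38, 9.33 and 8.93 in the DBM arrays, against 8.53, 8.31 and 8.24 in the GFP arrays. Its difference was 0.85 ± 0.19 (SE, adjusted p = 0.0285), and that of tac1.S was 0.72 ± 0.14 (SE, adjusted p = 0.00984). The enkephalin precursor penk.L differed by 0.69 ± 0.13 (SE, adjusted p = 0.0115). The groups of tac1.S and penk.L lay close, with lowest DBM arrays of 7.11 and 7.71 against highest GFP arrays of 6.95 and 7.51. The call of tac1.L was lost without any 1 of the 6 arrays. That of tac1.S was lost without DBM replicate 3 or GFP replicates 1 and 2 (highest adjusted p = 0.0979), and that of penk.L without DBM replicates 2 and 3 or GFP replicate 1 (highest adjusted p = 0.0715). The list had 2 calls without DBM replicate 2, 1 without DBM replicate 3, 1 and 2 without GFP replicate 1 or 2 and 1 with no block.

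Neither proneural factors nor ion channels showed such a shift. The list of proneural and sensory transcription factors had 0 of 34 probe sets called in either direction and a median of -0.02. Neurod1, which drives neuronal differentiation, differed by -0.10 for neurod1.S (95% interval -0.43 to 0.23) and -0.01 for neurod1.L (95% interval -0.34 to 0.31). Its relative neurod4.L differed by 0.28 (95% interval -0.14 to 0.71), and the 4 probe sets of neurog2, a neurogenin that acts upstream of both, lay between -0.14 and 0.01. The pan-neuronal RNA-binding protein elavl3.L gave 8.38, 8.19 and 8.55 in the DBM arrays, against 7.83, 8.37 and 8.82 in the GFP arrays. Its groups overlapped, and the interval of the difference, -0.41 to 0.47, held values as wide as those of some called genes. Neuronal tubulin tubb2b.S, one of the brightest neuronal genes, gave 12.76, 12.59 and 12.78 in the DBM arrays, against 12.43, 12.27 and 12.44 in the GFP arrays, with no overlap, and differed by 0.33 ± 0.10 (SE, adjusted p = 0.091), which missed the threshold. Of 52 probe sets of ion channels and transmitter receptors, 1 rose, where 1.57% of the array was called higher. It was the potassium channel subunit kcnab3.L at 0.53 ± 0.13 (SE, adjusted p = 0.0379), and the list's median was 0.01. This list was dim, with a mean of 5.55 to 5.71 per array against a median GFP level of 6.93 over all probe sets. Its median therefore says little about the members that were well expressed. The call of kcnab3.L was lost without DBM replicates 1 and 3 or GFP replicates 1, 2 and 3 (highest adjusted p = 0.317).

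**Figure D3:**
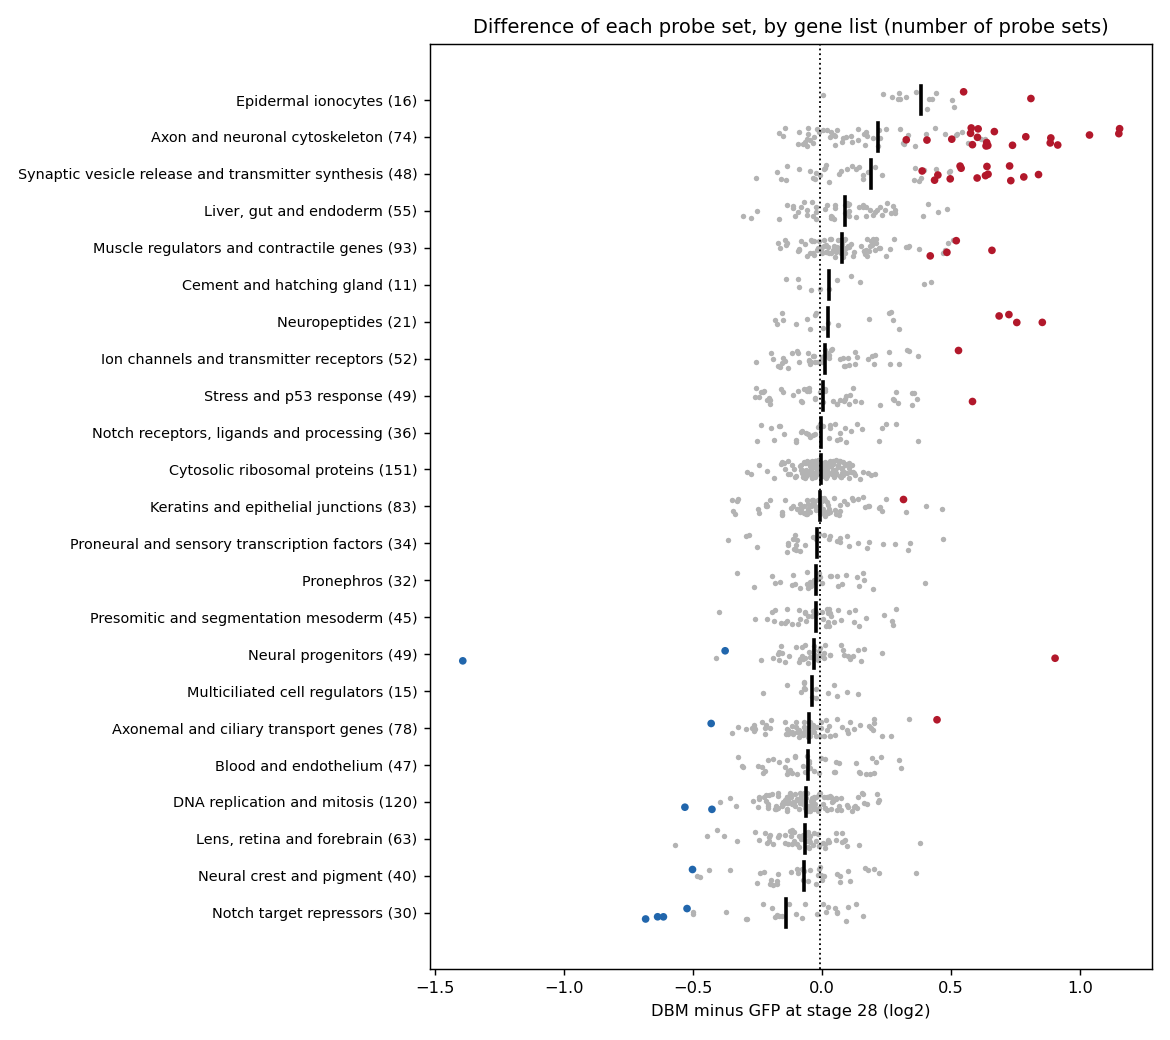
DBM minus GFP at stage 28 (x axis, log2) for each probe set of the 23 gene lists, with called probe sets in red where higher and blue where lower, the list median as a black bar and the median of all probe sets as a dotted line. Calls gather in the axon and synaptic lists, with 20 and 14, while ribosomal protein genes cluster around 0 with none.

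Among the repressors that Notch turns on, the calls were those of hes5 genes, all lower. Of 30 probe sets of hes, hey and nrarp genes, 4 fell and 0 rose, where 0.374% of the array was called lower. The median was -0.14. All 4 belong to the hes5 family, known targets of Notch in the neural plate. Hes5.1.S gave 9.17, 9.12 and 8.91 in the DBM arrays, against 9.75, 9.81 and 9.55 in the GFP arrays, with the highest DBM array below the lowest GFP array, and differed by -0.64 ± 0.13 (SE, adjusted p = 0.0135). Its L homeolog gave 10.45, 10.33 and 9.98 in the DBM arrays, against 10.88, 10.63 and 10.75 in the GFP arrays, also with no overlap, but its difference of -0.50 ± 0.14 (SE, adjusted p = 0.0726) was not called. Hes5.5.S differed by -0.68 ± 0.14 (SE, adjusted p = 0.0198) on one probe set and by -0.62 ± 0.14 (SE, adjusted p = 0.0353) on another with the same target by its identifier. For hes5.2.L the arrays gave 10.14, 9.65 and 9.33 in the DBM arrays, against 10.46, 10.07 and 10.17 in the GFP arrays, and DBM replicate 1 lay among the GFP arrays. Its difference was -0.52 ± 0.12 (SE, adjusted p = 0.0294), and hes5.2.S, at -0.50 ± 0.15 (SE, adjusted p = 0.0962), was not called. None of the hes5 calls was among the 38. That of hes5.1.S was lost without DBM replicates 2 and 3 or GFP replicates 1 and 2 (highest adjusted p = 0.114). The hes5.5.S call at -0.68 was lost without the same arrays (highest adjusted p = 0.159). The hes5.5.S call at -0.62 was lost without DBM replicates 1, 2 and 3 or GFP replicates 1 and 2 (highest adjusted p = 0.204). That of hes5.2.L was lost without DBM replicates 2 and 3 or GFP replicates 1, 2 and 3 (highest adjusted p = 0.26). The whole list had 0 calls without DBM replicate 2, DBM replicate 3, GFP replicate 1 or GFP replicate 2, and 0 with no block.

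Other parts of the pathway did not pass the test. Of 36 probe sets of receptors, ligands and processing enzymes, 0 were called in either direction, and their median was 0.00. The receptor notch1.S differed by -0.05 (95% interval -0.27 to 0.16), and the ligand dll1.L by 0.05 (95% interval -0.08 to 0.18) and -0.05 on its 2 probe sets. The targets hey1.S (-0.19 and 0.10) and nrarp.S (-0.13 and -0.02), a feedback inhibitor of Notch, were not called either.

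Neural progenitor genes went in both directions. Of 49 probe sets, 1 rose and 2 fell, where 1.57% of the array was called higher and 0.374% lower. The list median was -0.03. Slc1a3.L, a glutamate transporter of radial glia and astrocytes, had the widest difference of all called genes. It gave 7.21, 7.08 and 7.75 in the DBM arrays, against 7.77, 8.81 and 9.65 in the GFP arrays, and the GFP arrays spread widely, with replicate 1 close to the DBM arrays. The difference was -1.39 ± 0.25 (SE, adjusted p = 0.00819), a call lost without DBM replicates 2 and 3 or GFP replicate 2 (highest adjusted p = 0.0857). Geminin, gmnn.L, which blocks the licensing of replication and keeps neural cells uncommitted, differed by -0.38 ± 0.09 (SE, adjusted p = 0.0475), a call lost without any 1 of the 6 arrays. Nestin, the intermediate filament of neural progenitors, was the gene that rose. Its called probe set gave 6.66, 6.87 and 6.96 in the DBM arrays, against 5.81, 5.59 and 6.37 in the GFP arrays, a difference of 0.90 ± 0.12 (SE, adjusted p = 0.00109) that no single array decided but that had an adjusted p of 0.994 with no block. Its 3 probe sets did not move together, and their lowest difference was -0.08. In the list of DNA replication and mitosis 2 of 120 probe sets fell and 0 rose, where 0.374% of the array was called lower. They were the origin subunit orc6.L at -0.43 ± 0.08 (SE, adjusted p = 0.00957) and the cohesion factor cdca5.L at -0.53 ± 0.11 (SE, adjusted p = 0.0153). In this list 33 of the 120 lay above 0, and the median was -0.06. The call of orc6.L was lost without DBM replicates 2 and 3 or GFP replicates 1 and 2 (highest adjusted p = 0.08) and that of cdca5.L without DBM replicates 1 and 2 or GFP replicates 1 and 2 (highest adjusted p = 0.123).

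Outside the nervous system the list of epidermal ionocytes had the largest median difference. All 16 probe sets of this list lay above 0, with a median of 0.38, and 2 were called higher, where 1.57% of the array was. Several members are subunits of a proton pump that other cells carry too. Of 40 probe sets of that pump and its accessory proteins, some of them in this list, 35 lay above 0. Outside the list atp6v0c.L differed by 0.58 and atp6v1b2.S by 0.46, while atp6v0d1.L fell by 0.36. These members were picked after their values were seen. Higher levels were thus also found for pump genes outside the list, and which cells carried them was not tested. Atp6v1b1.L, a proton pump subunit of acid-secreting cells, gave 9.57, 9.78 and 10.11 in the DBM arrays, against 8.35, 9.14 and 9.54 in the GFP arrays. GFP replicate 3 lay close to the lower DBM arrays, while the gap within each replicate number was 0.57 or more, and the difference was 0.81 ± 0.18 (SE, adjusted p = 0.0238). Ubp1.L, a transcription factor that acts in Xenopus ionocytes, differed by 0.55 ± 0.14 (SE, adjusted p = 0.0452). The mean level over the list was 9.27 to 9.61 in DBM arrays and 8.86 to 9.27 in GFP arrays. The call of atp6v1b1.L was lost without DBM replicates 1, 2 and 3 or GFP replicates 1 and 2 (highest adjusted p = 0.178) and that of ubp1.L without any 1 of the 6 arrays. The list had 2 calls without GFP replicate 3 and 0 without any other of the 6 arrays. The groups did not overlap in 5 of the 16, where 13.4% of all probe sets on the array had groups that did not overlap.

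Muscle genes held 4 calls among 93 probe sets, all higher, where 1.57% of the array was called higher. In this list 71 lay above 0, and the median was 0.08. Tmod4.L, a cap of thin filaments in skeletal muscle, was the firmest. It gave 9.63, 9.53 and 9.62 in the DBM arrays, against 8.96, 8.84 and 9.0 in the GFP arrays, a narrow spread on both sides, and differed by 0.66 ± 0.08 (SE, adjusted p = 0.000623). Myod1, the master regulator of muscle fate, was called on both homeologs, with 0.52 ± 0.10 (SE, adjusted p = 0.0113) for myod1.L and 0.48 ± 0.09 (SE, adjusted p = 0.0135) for myod1.S. The muscle enolase eno3.L differed by 0.42 ± 0.10 (SE, adjusted p = 0.039). Tmod4.L kept its call without each array, while myod1.L lost it without DBM replicates 1, 2 and 3 or GFP replicates 1 and 2 (highest adjusted p = 0.0801), myod1.S without DBM replicates 1, 2 and 3 or GFP replicates 1 and 2 (highest adjusted p = 0.108) and eno3.L without any 1 of the 6. The mean level over the muscle list was 9.69 to 9.89 in DBM arrays and 9.61 to 9.75 in GFP arrays, and the part of these cells in the other results was not tested.

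The remaining lists held few calls or none, where 1.57% of the array was called higher and 0.374% lower. The single calls below describe those genes and are no results about their lists. Among ciliary genes, ift57.S rose and ak7.S fell, of 78 probe sets with a median of -0.05, and the 15 probe sets of multiciliated cell regulators had 0 calls. Slc45a2.L, a transporter of pigment granules, was the only called member of 40 in the neural crest and pigment list, at -0.51 ± 0.10 (SE, adjusted p = 0.0183), and lost its call without DBM replicates 2 and 3 or GFP replicates 2 and 3 (highest adjusted p = 0.139). The call of ift57.S was lost without DBM replicates 1 and 2 or GFP replicates 1 and 2 (highest adjusted p = 0.27) and that of ak7.S without DBM replicate 3 or GFP replicate 1 (highest adjusted p = 0.109). Cgn.L, of epithelial junctions, and the small heat shock protein hspb1.L were called higher in their lists of 83 and 49 probe sets. Cgn.L lost its call without DBM replicates 1, 2 and 3 or GFP replicates 1, 2 and 3 (highest adjusted p = 0.279) and hspb1.L without DBM replicates 1, 2 and 3 or GFP replicates 1 and 3 (highest adjusted p = 0.204). Lists for segmentation mesoderm, blood, lens and retina, pronephros, liver and gut, cement gland and cytosolic ribosomal proteins had 0 calls, with medians between -0.07 and 0.09.

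Several of the highest-ranked genes lay in no list. Among those that rose, sez6l2.S, a membrane protein of neurons, gave 7.39, 7.22 and 7.78 in the DBM arrays, against 6.75, 6.59 and 6.89 in the GFP arrays, a difference of 0.72 ± 0.08 (SE, adjusted p = 0.000413), although its second probe set differed by -0.01. The Golgi GTPase rab6b.S, enriched in brain, gave 6.32, 6.38 and 6.45 in the DBM arrays, against 5.53, 5.60 and 5.72 in the GFP arrays and differed by 0.77 ± 0.10 (SE, adjusted p = 0.000785). Aldoc.L, the brain form of aldolase, differed by 0.59 ± 0.08 (SE, adjusted p = 0.000623). Several others named here are also known from neurons: the chloride exporter slc12a5.L (0.70 ± 0.10 (SE, adjusted p = 0.0014)), neuritin nrn1.S (0.74 ± 0.11 (SE, adjusted p = 0.00192)) and the secreted olfm1.S (0.64 ± 0.10 (SE, adjusted p = 0.00244)), which were picked after their values were seen. All of these kept their calls without each array. With no block, aldoc.L, slc12a5.L and nrn1.S were not called (adjusted p = 0.483, 0.0614 and 0.121). Dhcr7.S, the last enzyme of cholesterol synthesis, differed by 0.91 ± 0.13 (SE, adjusted p = 0.0014), and its values of 9.11, 9.52 and 9.61 in the DBM arrays, against 7.78, 8.68 and 9.07 in the GFP arrays showed GFP replicate 1 far below the other GFP arrays.

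Among genes that fell, brms1.L had the lowest p of all probe sets with a symbol. This subunit of histone deacetylase complexes gave 5.68, 5.73 and 6.46 in the DBM arrays, against 6.77, 7.04 and 7.32 in the GFP arrays, and even the highest DBM array was below the lowest GFP array. Its difference was -1.09 ± 0.11 (SE, adjusted p = 0.000127). The deubiquitinase yod1.L gave 8.30, 8.29 and 8.22 in the DBM arrays, against 8.86, 9.17 and 8.94 in the GFP arrays, with the DBM arrays close together, and differed by -0.72 ± 0.09 (SE, adjusted p = 0.000623). Ostc.L, of the oligosaccharyltransferase, differed by -0.69 ± 0.09 (SE, adjusted p = 0.00083), and the nucleoporin ndc1.S by -0.58 ± 0.08 (SE, adjusted p = 0.00192). Other probe sets of both genes were not called. The second of ndc1.S differed by -0.01, and the smallest difference among the 3 of ostc.L was -1.2e-05. Brms1.L, yod1.L, ostc.L and ndc1.S were the only genes that fell and kept their calls without each of the 6 arrays. With no block brms1.L and ostc.L were still called, while yod1.L and ndc1.S were not (adjusted p = 0.0968 and 0.284). The chromatin factors mtf2.S, at -0.76 ± 0.14 (SE, adjusted p = 0.00819), and brd2.S, at -0.61 ± 0.11 (SE, adjusted p = 0.00781), were lost without DBM replicates 2 and 3 or GFP replicate 2 (highest adjusted p = 0.0737) and without DBM replicate 2 or GFP replicate 2 (highest adjusted p = 0.074). With no block neither was called (adjusted p = 0.101 and 0.9998). The second probe set of brd2.S differed by 0.15, and the smallest difference among the 6 of mtf2.S was -0.0005. The 2 probe sets of the chloride channel ano1.L fell by 0.79 and 0.62 on the log2 scale, and GFP replicate 1 was the lowest GFP array on both. Either call remained without DBM replicate 1 and was lost without any other of the 6 arrays.

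Xenopus laevis carries 2 copies of most genes, the L and S homeologs, which give a second reading from other probes, but on the same pools and arrays. Both homeologs of 2009 genes were measured. In 66 of these at least 1 homeolog was called higher, in 12 both were, and in 59 both differences were above 0. Where 1 homeolog was called, in 54 genes, the other had a median difference of 0.16, and 47 of the 54 lay above 0. Over all probe sets with a symbol, 46.3% lay above 0, 1.57% were called higher and 0.529% lower. The brightest probe set of each symbol was used here. The 12 genes called on both were gap43, khsrp, myod1, nefm, nif, ogdh, olfm1, sncb, stmn3, stmn4, syp and tac1. Beside 9 genes known from neurons, these are the RNA-binding protein khsrp, the muscle regulator myod1 and the mitochondrial enzyme ogdh. In 23 genes a homeolog was called lower, in 0 were both, and the uncalled homeolog had a median of -0.16, below 0 in 19 of 23. Homeologs are close in sequence, and signal shared between their probe sets was not tested. Counting any probe set of a symbol added qki, rtn1 and rtn4, for 15 genes, and both homeologs of 4 genes, nefm, nif, stmn4 and syp, kept their calls without each of the 6 arrays. Of 131 called symbols with several probe sets, 86 had all of them on 1 side of 0 and 6 had every probe set called, and fbl.S was called in both directions, its lower call lost without DBM replicates 1 and 3 or GFP replicate 1 (highest adjusted p = 0.0955) and its higher call without DBM replicates 2 and 3 or GFP replicates 1 and 2 (highest adjusted p = 0.137).

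**Figure D4:**
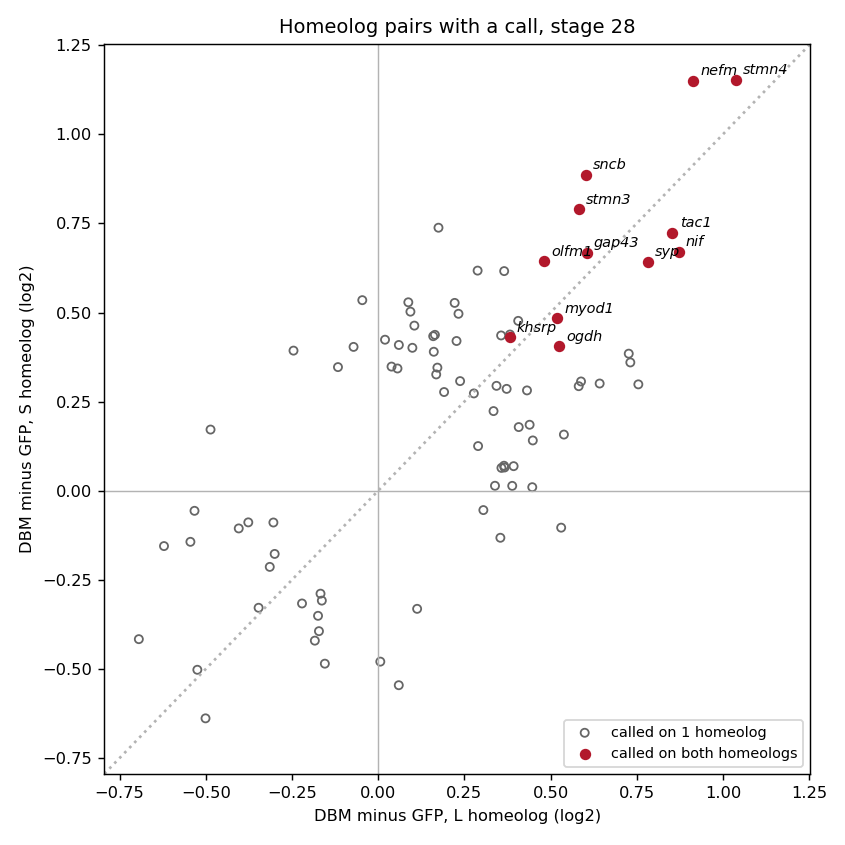
DBM minus GFP at stage 28 (log2) of the L homeolog (x axis) and of the S homeolog (y axis) for each gene with both homeologs measured and at least 1 called, using the brightest probe set of each symbol. The 12 genes called on both, filled in red, all lie above 0 on both axes, and no gene was called lower on both.

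The effect of DBM at stage 28 was set against that at the earlier and later stages, each against GFP of its own stage. At stage 18 the genes that rose at stage 28 had a median difference of -0.07, and 1 of the 243 was called, where 0.236% of all probe sets were. A test of the difference between stages 28 and 18 called 135 of the 243 and 38 of the 82 that fell, against 2.61% of all probe sets. The members were chosen for their values at stage 28, so these counts are descriptions. Over the whole array this test called 852 probe sets, but 8 with no block, 230 and 142 without DBM replicate 2 or 3, and 411 and 235 without GFP replicate 1 or 2. DBM minus GFP for nefm.S was -0.31 at stage 18, 1.15 at stage 28 and 0.57 at stage 38, and the change between stages 18 and 28 was 1.46 ± 0.21 (SE, adjusted p = 0.00295). Hes5.1.S had 0.42 at stage 18, -0.64 at stage 28 and -0.52 at stage 38, so that DBM arrays were above GFP arrays at the early stage, with a change of -1.06 ± 0.18 (SE, adjusted p = 0.00677). Stmn4.L had -0.26 at stage 18, 1.04 at stage 28 and 0.73 at stage 38.

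At the later stage the 243 had a median difference of 0.06 (stage 38), and 7 were called, all higher, and 0 of the 82 that fell were called, against 0.0981% called higher, 0.0123% called lower and 0.11% called in all on the array. The test of stage 28 against stage 38 called 7 probe sets of the whole array, 0.0214%, and 4 of these had a symbol, tmod4.L, brms1.L, fbl.S and opn1lw.L, a retinal opsin. It called 0 with no block, 0, 4 and 3 without DBM replicate 1, 2 or 3, 3 without GFP replicate 2 and 37 without GFP replicate 3. Brms1.L had 0.19 at stage 18, -1.09 at stage 28 and 0.09 at stage 38, and tmod4.L had -0.06 at stage 18, 0.66 at stage 28 and -0.12 at stage 38. Neither was called at stage 18 or 38, and the differences between stages 28 and 38 were -1.18 ± 0.15 (SE, adjusted p = 0.00663) for brms1.L and 0.77 ± 0.12 (SE, adjusted p = 0.026) for tmod4.L. Cck.L went the other way in size, with -0.26 at stage 18, 0.75 at stage 28 and 1.0 at stage 38, a change that was not called (-0.24 ± 0.14 (SE, adjusted p = 0.642)).

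In GFP embryos many of the neuronal genes climbed with age. Nefm.S averaged 4.93 at stage 18, 7.45 at stage 28 and 8.80 at stage 38, and syp.L averaged 5.66, 7.65 and 9.91 at these stages. Among the 243 probe sets that rose, 62.6% were higher in GFP embryos at stage 38 than at stage 18, with a median of 0.54. The share was 40.2% among the 82 that fell, with a median of -0.16, and 45.6% among all probe sets with a symbol. Whether DBM and GFP pools differed in their exact age at harvest was not tested.

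**Figure D5:**
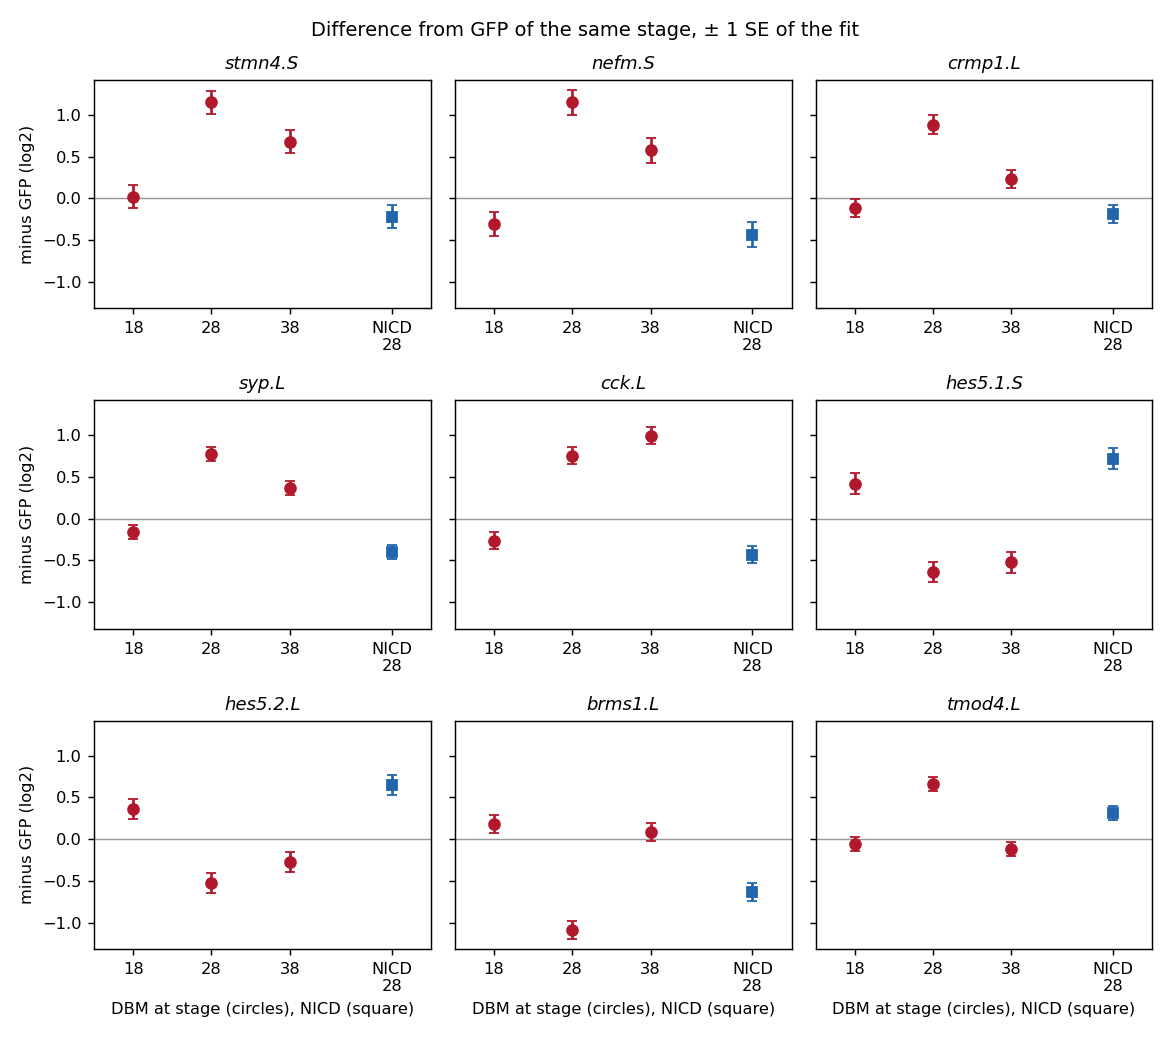
Difference from GFP of the same stage (y axis, log2, ± 1 SE of the fit) for 9 genes, with DBM at stages 18, 28 and 38 as red circles and NICD at stage 28 as a blue square. The 5 neuronal genes lie near or below 0 at stage 18 and above it at stages 28 and 38, and brms1.L and tmod4.L differ from 0 at stage 28 and hardly at the other stages.

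At stage 28 DBM was also compared directly with NICD, the construct of opposite action. This comparison called 2503 probe sets, 7.67% of all (5.04% higher and 2.63% lower), but 1199 without DBM replicate 3 and 564 with no block. Of the 243 probe sets higher in DBM than in GFP embryos, 119 were called higher and 0 lower in DBM than in NICD embryos, and 124 were not called. Of the 82 that were lower, 35 were called lower and 1 higher, ak7.S. These counts share the DBM arrays with the comparison that chose the genes, so they are descriptions. NICD minus GFP, with the same GFP arrays, had a median of 0.13 over the 243 and of -0.14 over the 82. These are the directions of DBM minus GFP (medians 0.45 and -0.43). Over all probe sets with a symbol, not chosen by their values, the median was 0.01. Since the 243 and 82 were chosen partly by their values on these GFP arrays, the shared directions are descriptions and add no support. Hes5.1.S had levels of 10.38, 10.35 and 10.54 in the NICD arrays, above all DBM and GFP arrays, and DBM minus NICD was -1.36 ± 0.13 (SE, adjusted p = 3.34e-06). For nefm.S the NICD arrays gave 7.33, 7.0 and 6.70, all below the DBM arrays, with a difference of 1.59 ± 0.15 (SE, adjusted p = 3.34e-06). NICD arrays had a list median of 0.68 above GFP for the Notch target repressors and -0.18 for the axon genes, against -0.14 and 0.22 for DBM, with the same GFP arrays in both.

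Other genes that rose under DBM were not called between DBM and NICD, which does not show that their levels were alike. Nestin gave 7.11, 6.54 and 6.99 in NICD arrays, and DBM minus NICD was -0.06 ± 0.12 (SE, adjusted p = 0.861). Not called either were dhcr7.S (0.10 ± 0.13 (SE, adjusted p = 0.739)), myod1.S (-0.01 ± 0.09 (SE, adjusted p = 0.973)) and the activin receptor acvr1b.S (0.08 ± 0.08 (SE, adjusted p = 0.642)), which were picked after their values were seen. Brms1.L was intermediate, with 6.06, 6.53 and 6.63 in the NICD arrays and a difference of -0.45 ± 0.11 (SE, adjusted p = 0.013) between DBM and NICD.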

How the data were processed

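Total RNA of pools of 10 embryos was hybridised to Affymetrix Xenopus laevis 2.0 arrays, 27 in all, 3 for each of 9 groups. The deposited values were RMA levels on the log2 scale, made by the authors with Bioconductor in R; RMA corrects the background, normalizes quantiles across arrays and summarizes the probes of a set, so an evenly shared shift of most genes would be removed. A further 27 columns of array values, in a second table whose headers could not be matched to single samples, and 6 columns of the authors' own p-values were not used. Gene symbols came from the platform annotation, of which 15394 Entrez IDs were found in the RefSeq gene table for Xenopus_laevis_v10.1; 279 probe sets had several genes and 16851 had none.

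Limma 3.58.1 in R 4.3.3 was fitted to all 27 arrays with 9 groups and the replicate number within each stage as a fixed block (lmFit, contrasts.fit, eBayes). The tests were two-sided, with Benjamini-Hochberg adjustment over all 32635 probe sets of a comparison. The study's methods used limma without a block, and that fit is an alternative. The block was kept because the numbers paired the samples. Deviations from the group means, over all probe sets, correlated at 0.566 to 0.646 in the 3 DBM and GFP pairs of 1 number and at -0.364 to -0.255 in the 6 other pairs. Deviations within each group of 3 arrays sum to 0. Positive values in pairs of 1 number therefore bring negative ones in the other pairs, which add no support. The numbers stand in the sample titles. Headers of the unused table carry date-form labels that at stage 28 each take 1 DBM, 1 GFP and 1 NICD array. These headers could not be matched to the replicate numbers, so they are no ground for the block. Neither titles nor headers say whether a number marks a clutch, a day or a separate pool. The p-values therefore measure the spread between these arrays only.

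Named genes were, among called probe sets of the same sign in all 3 pairs, the 12 symbols of lowest p and the 5 of largest difference in each direction, up to 5 called members of each of 23 gene lists (or the 2 of lowest p where none was called), 13 genes of the pathway and of neurogenesis whatever their call, and the other homeologs of these. Other genes named were picked after their values were seen. The members and the lists were chosen with earlier results of these data known. List members that matched a pattern but not the list's meaning were removed by name. In simulated data of all 32635 probe sets with 200 differences of each size planted at stage 28, the fit recovered 12.5%, 71.5% and 98.5% of differences of 0.25, 0.5 and 1, with 16 false among 381 calls. With no block, the shares were 1.5%, 25.5% and 88%, with 0 false among 230 calls. The data were drawn from the blocked fit itself, with independent normal residuals. They therefore cannot test the choice of block. The number of arrays limits the precision of every value. Alternatives were other blocks, fewer arrays, each array left out, a filter on the dimmest 25% of probe sets, repeated quantile normalization, a common array median, a trended and robust prior, array weights and the Benjamini-Yekutieli adjustment.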

Additional observations from a re-analysis of the deposited data

Results flagged for a closer look

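The results below were marked because the effect of DBM at stage 28 differed from its effect at another stage, by the limma test of the difference itself with the replicate block and a Benjamini-Hochberg adjusted p below 0.05. Each value is the difference DBM minus GFP at stage 28 minus that at the other stage, on the log2 scale. Whole-array counts were 7 probe sets for stage 28 against stage 38 and 852 for stage 28 against stage 18, and both moved with single arrays.

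Against stage 38, the named genes were brms1.L at -1.18 and the muscle gene tmod4.L at 0.77.

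Against stage 18, 37 of the 110 named probe sets were marked, where 2.61% of all probe sets were called. Many of the named genes were chosen by their values at stage 28, which enter this test, so the count is a description. With no block the test called 8 probe sets of the whole array. Among neuronal genes of the axon and synapse the values were 1.46 for nefm.S, 1.09 for nefm.L, 1.29 for stmn4.L, 1.14 for stmn4.S, 1.0 for crmp1.L, 0.94 for syp.L, 0.64 for syp.S, 0.94 for syt4.L, 0.51 for snap25.L and 0.52 for sncg.S. The peptide precursors had 1.02 for cck.L and 0.82 for tac1.S, and the other genes known from neurons had 0.96 for sez6l2.S and 0.51 for aldoc.L. Nestin, nes.S, had 1.27. All of these were positive, so that DBM stood higher over GFP at stage 28 than at stage 18.

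The hes5 repressors were negative, with -1.06 for hes5.1.S, -0.75 for hes5.1.L, -0.84 for hes5.5.S and -0.89 for hes5.2.L. The radial glial transporter slc1a3.L had -1.39 and geminin gmnn.L had -0.56. Genes of replication and mitosis had -0.59 for orc6.L and -0.78 for cdca5.L.

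Muscle genes were positive, with 0.71 for tmod4.L, 0.58 for myod1.L, 0.54 for myod1.S and 0.63 for eno3.L, as were the ionocyte genes atp6v1b1.L at 1.10 and ubp1.L at 0.84. Cgn.L had 0.47 and astl2d.1.L, a member of the astacin protease family that was not called at stage 28, had 0.81. Among the remaining genes that fell at stage 28, brms1.L had -1.28, yod1.L had -0.86, ostc.L had -0.67, ndc1.S had -0.75, the bromodomain protein brd2.S had -0.79 and the RNA exosome subunit exosc10.L had -0.69.

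No group held 4 or more arrays, so single arrays were not screened for outlying values.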

How the results depend on the processing

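The calls rested on the replicate block. For DBM minus GFP at stage 28, stage 28 minus stage 38, stage 28 minus stage 18 and DBM minus NICD, the 634, 7, 852 and 2503 calls became 35, 0, 8 and 564 with no replicate block and 65, 0, 16 and 807 with 1 block over all stages. Every call made with no block or with 1 block was also among the 634. Limma on the 6 arrays with the replicate block called 100, of which 96 were shared with the 634. Without the block it called 0, where 2359 had an unadjusted p below 0.05 and the lowest adjusted p was 0.18. The 9 arrays of stage 28 with the block called 250, with 202 shared. The 4 counts were 72, 0, 19 and 964 with the Benjamini-Yekutieli adjustment. A trended and robust prior gave 18 for stage 28 against 38, and array weights gave 17 there, 1564 against stage 18 and 4877 for DBM minus NICD. Without 1 of the 6 DBM and GFP arrays of stage 28, the 4 counts ranged from 160 to 523, 0 to 37, 142 to 724 and 1199 to 2650. The NICD arrays were not left out, so their part in the DBM minus NICD count was not tested. For DBM minus NICD, a common array median called 1361 higher and 1194 lower, against 1645 and 858 otherwise. It moved the median of neuropeptide differences to -0.01. Dropping dim probe sets, repeated quantile normalization and a common median left the DBM minus GFP count within 1.5 times, at 793, 555 and 520. The balance of directions moved from 512 higher and 122 lower to 403 and 152 with repeated quantile normalization. It was 371 and 149 with the common median, and 630 and 163 with dim probe sets dropped. None of the named genes called changed sign under any alternative run, which was largely fixed in advance. Each had the same sign in all 3 pairs, and the choice of block leaves the difference itself as it was. The unchanged signs are therefore no sign of robustness. Of the 51 named probe sets called, 37 lost their call with no block, 33 with 1 block, 28 on 6 arrays with the block, 16 on 9 arrays and 11 to 27 without 1 array. The spread over 3 arrays per group limits the precision. In data simulated from the blocked fit, that fit recovered 12.5% of true differences of 0.25 and 71.5% of those of 0.5, which does not test the block.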

Other observations

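Groups of genes noticed among the called probe sets after their values were seen are given here as descriptions, with no test of the group. The vacuolar proton pump, the V-ATPase, acidifies vesicles in all cells and moves protons across the membrane of acid-secreting cells. Of 40 probe sets of its subunits and accessory proteins, standing for 27 symbols, 9 rose and 1 fell, with a median difference of 0.31 and 35 above 0. The accessory subunit atp6ap1.1.L differed by 0.98 and atp6v1b1.L by 0.81, while their other probe sets, at 0.42 and 0.50, were not called. The membrane subunit atp6v0c.L differed by 0.56 and 0.58 on 2 called probe sets and by 0.33 on the third, which was not called, atp6v1b2.S by 0.45 and 0.46, atp6v1e1.L by 0.48, atp6v1f.S by 0.43 and atp6ap1.2.S by 0.40. Atp6v0d1.L, a subunit of the membrane sector, was the member that fell, at -0.36. The median of the group was -0.15 at stage 18 and 0.14 at stage 38, and -0.26 for NICD minus GFP at stage 28. Of the 9 higher calls 6, 3 and 2 remained without DBM replicate 1, 2 or 3, 2, 6 and 8 without GFP replicate 1, 2 or 3, and 0 with no block. That of atp6v0d1.L remained only without DBM replicate 1. Some of its members also stand in the ionocyte list.

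The hox genes, which set position along the body axis, had 38 probe sets for 25 symbols. Of these 5 rose and 0 fell, with a median of 0.16 and 28 above 0. On their called probe sets hoxb6.S differed by 0.57, hoxc6.S by 0.55, hoxa2.S by 0.42, hoxd3.L by 0.40 and hoxb4.S by 0.35. Not called were the other probe sets of hoxb6.S (0.21) and hoxc6.S (0.48, 0.26 and -0.10), and hoxa2.L (0.02). The median was 0.04 at stage 18 and 0.01 at stage 38, and 0.37 for NICD minus GFP at stage 28, with the same GFP arrays. Of the 5 calls 1, 2 and 1 remained without DBM replicate 1, 2 or 3, 0, 1 and 4 without GFP replicate 1, 2 or 3, and 0 with no block. The counts of called members are read against 1.57% of all probe sets called higher and 0.374% called lower.

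Of the 634 called probe sets, 309 had no single gene symbol, 269 of them higher and 40 lower, and they are not named here.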
